A study of Homo sapiens with 12 samples.

Results

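The resting transcriptomes of MKN74 and AGS, established human gastric cancer cell lines, were compared as MKN74 control minus AGS control. Every row with a gene symbol and a mean of at least 1 CPM over both control libraries was taken, which gave 12161 of 13091 symbols in the deposited table. CPM is the usual depth-scaled read count of a gene and is not corrected for gene length, so levels are compared only within a gene. A difference is that of the deposited log2(CPM + 1) values, so a difference of 1 or -1 is called 2-fold here, and the scale understates the change of low genes. MGAT3-AS1 and LINC01560 lay just inside the filter with a mean of 1.0006 CPM each, and TFF1 and PLA2G2E just outside it with means of 0.9994 and 0.9996 CPM.

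The study is about ONECUT2, a homeodomain transcription factor of endodermal tissues, and it set control cells of both lines against cells made to overexpress it. The control RNA libraries carry the line name and the word control in their labels, and no genotype, vector or passage is given for them. Whether each line is a single clone is not given either. There was 1 control library per line, so no replicate check of a difference exists, and each value describes these libraries. The AGS control held 36132888 recovered reads in the listed rows and the MKN74 control 36097456, and a gene at 0 could have up to 3 reads, which is 0.0731 CPM in AGS and 0.0718 CPM in MKN74. The overexpression library of each line held 36492454 reads in AGS and 38110453 in MKN74. It was used to see whether a line difference was met again in a second pair that shares no library with the first. Both overexpression libraries also entered the limma fit over 4 libraries given below. In those libraries ONECUT2 itself was at 18.3 CPM in AGS and 57.6 in MKN74, so the second pair is not a repeat of the first.

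The stomach is lined by a simple glandular epithelium of endodermal origin. Transcription factors of the GATA4/GATA6, FOXA, HNF and SOX families set up and hold the identity of such glands, and intestinal genes appear in the stomach when it turns to intestinal metaplasia. Stratified epithelia such as skin and oesophagus use other factors (TP63, TFAP2 and GATA3 among them) and another set of keratins and desmosomal cadherins. Keratins 8 and 18 are the filaments of simple epithelia, and keratins 5, 6 and 14 those of stratified ones.

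Both lines carried high levels of simple epithelial genes. AGS held intestinal and hepatic-type endodermal transcripts, and a few gastric ones, of which several were close to 0 in MKN74. MKN74 held stratified epithelial transcripts, of which several were close to 0 in AGS, while others such as KRT17 were present in both lines. Where levels are written as one value against another, AGS stands first. Of the tested genes 1762 (14.5%) were at least 2-fold higher in MKN74 and 1995 (16.4%) at least 2-fold higher in AGS. Every count of list members in the control pair below is to be read beside these shares. A gene near 0 in one line passes the filter only through its level in the other. For such members the side in a count follows from the filter and gives no support for a direction. At 8-fold the counts were 414 and 426, and at 32-fold 107 and 137. The median difference was 0.02 and the standard deviation over genes 1.56. Within 1.2-fold of each other lay 2966 genes (24.4%), whereas 6251 of the 12161 differed at least 1.5-fold. In bulk libraries, fewer cells that express a gene and less of its RNA per cell cannot be told apart.

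**Figure D1:**
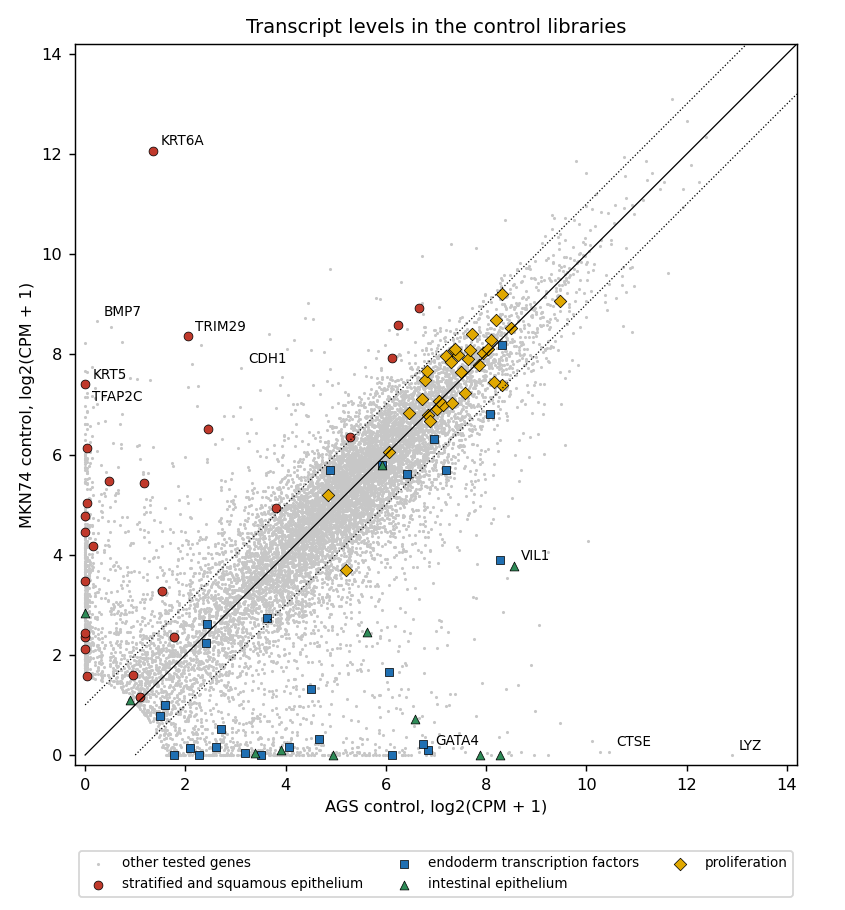
Each point is 1 of the 12161 tested genes, with its log2(CPM + 1) in the AGS control library on the x axis and in the MKN74 control library on the y axis; the solid line marks equal values and the dotted lines a 2-fold difference, with 1 library per axis and no error bars. Most stratified epithelial genes lie above the lines or along the y axis, most endoderm transcription factors and intestinal genes lie below them or along the x axis, and proliferation genes lie between the lines apart from TYMS.

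Some genes were on in a line and off in the other. With 0 reads in the AGS control there were 104 genes at 10 CPM or more in MKN74, and with 0 reads in the MKN74 control there were 75 genes at 10 CPM or more in AGS. With at most 3 reads allowed, the counts were 189 and 140. All 189 genes that were off in the AGS control were at 1 CPM or less in AGS overexpression too, and 132 of the 140 that were off in the MKN74 control were so in MKN74 overexpression. Among the other 8 was LYZ.

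The promoters of 6 genes that were near 0 in a single line are shown, LDHB and CTSE for MKN74 and HLTF, ME1, RDX and KRT5 for AGS, because the study's title concerns CpG methylation near promoters and each of these genes was at no more than 9 reads in the line where it was low and far higher in the other. They were picked after their values were seen. They are RefSeq windows of GRCh38.p14 from 250 bases before to 50 bases after the gene start, 5′ to 3′ on the gene's own strand (all 6 on the minus strand), with each CG in capitals.
LDHB, chr12:21657793-21658092: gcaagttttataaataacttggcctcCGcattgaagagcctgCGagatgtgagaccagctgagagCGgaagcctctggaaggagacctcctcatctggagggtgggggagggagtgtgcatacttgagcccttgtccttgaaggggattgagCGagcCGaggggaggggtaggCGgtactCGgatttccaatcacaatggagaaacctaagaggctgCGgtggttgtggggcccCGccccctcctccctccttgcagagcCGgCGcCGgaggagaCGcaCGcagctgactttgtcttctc
CTSE, chr1:206023846-206024145: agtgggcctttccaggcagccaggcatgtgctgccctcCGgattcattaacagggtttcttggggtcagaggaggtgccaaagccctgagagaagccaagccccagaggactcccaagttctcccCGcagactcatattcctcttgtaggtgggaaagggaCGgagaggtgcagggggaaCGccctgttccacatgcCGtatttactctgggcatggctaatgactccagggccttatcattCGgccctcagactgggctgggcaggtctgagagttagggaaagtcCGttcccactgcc
HLTF, chr3:149086484-149086783: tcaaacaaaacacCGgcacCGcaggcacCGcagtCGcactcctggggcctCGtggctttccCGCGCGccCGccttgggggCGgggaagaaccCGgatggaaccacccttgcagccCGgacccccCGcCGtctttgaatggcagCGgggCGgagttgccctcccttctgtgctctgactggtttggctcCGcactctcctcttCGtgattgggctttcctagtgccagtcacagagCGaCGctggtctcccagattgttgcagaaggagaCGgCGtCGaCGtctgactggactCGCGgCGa
ME1, chr6:83431002-83431301: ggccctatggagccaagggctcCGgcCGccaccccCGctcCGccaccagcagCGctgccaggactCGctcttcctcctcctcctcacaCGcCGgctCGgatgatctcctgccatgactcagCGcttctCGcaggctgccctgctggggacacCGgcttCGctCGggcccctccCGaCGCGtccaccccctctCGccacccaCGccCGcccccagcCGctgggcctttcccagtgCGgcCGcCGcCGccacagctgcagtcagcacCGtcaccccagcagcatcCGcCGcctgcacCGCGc
RDX, chr11:110296565-110296864: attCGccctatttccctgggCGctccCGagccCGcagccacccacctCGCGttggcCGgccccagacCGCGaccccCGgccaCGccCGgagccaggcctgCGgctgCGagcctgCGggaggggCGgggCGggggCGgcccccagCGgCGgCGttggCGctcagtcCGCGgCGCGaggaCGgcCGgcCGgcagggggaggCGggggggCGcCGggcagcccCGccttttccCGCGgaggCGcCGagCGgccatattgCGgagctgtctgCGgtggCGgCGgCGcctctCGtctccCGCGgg
KRT5, chr12:52520345-52520644: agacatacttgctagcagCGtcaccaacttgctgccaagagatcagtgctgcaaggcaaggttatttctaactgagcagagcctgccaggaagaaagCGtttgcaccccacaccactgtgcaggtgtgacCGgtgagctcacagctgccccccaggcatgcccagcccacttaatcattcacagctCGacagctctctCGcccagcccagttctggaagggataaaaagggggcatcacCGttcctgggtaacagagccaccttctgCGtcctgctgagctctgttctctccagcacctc

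LDHB encodes the B subunit of lactate dehydrogenase, and it was at 1113 CPM in AGS and 0.215 CPM in MKN74. Its window holds 14 CG. CTSE, cathepsin E, an aspartic protease of gastric surface cells, was at 1394 and 0.0478 CPM, the latter from 2 reads, and its window holds 7 CG. HLTF, a chromatin remodeller of the SWI/SNF family, was at 0.0975 in AGS and 59.6 CPM in MKN74, with 27 CG in the window. ME1, the cytosolic malic enzyme that makes NADPH, was at 0.0244 (1 read) and 199.99 CPM, with 30 CG. RDX, radixin, was at 0 in AGS and 298 CPM in MKN74, at least 4071-fold higher against a floor of 3 reads, with 46 CG. KRT5, a keratin of stratified epithelium, was at 0 and 169 CPM, at least 2308-fold higher, with 7 CG. Over the first window listed for each of 27305 genes the lower quartile, median and upper quartile of the CG count were 3, 14 and 28. So the counts of the 6 genes run from 7 in CTSE and KRT5, below the median window, to 46 in RDX, above 97.2% of windows.

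A comparison of CG content between the groups is void, since windows were found for only 70.0% of the 414 genes 8-fold higher in MKN74 and 77.5% of the 426 higher in AGS, under the 80% needed. The same holds for a search of the windows for ATTGAT, a core of the ONECUT binding motif, on either strand. That hexamer stood in 6.40% of all windows and in none of the 6 shown. This says only that these letters are not in these windows.

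LYZ, the lysozyme of gastric glands and of Paneth and myeloid cells, differed most. It was at 7661 CPM in AGS and at 0 in MKN74, and at 7066 and 6.89 CPM in the overexpression libraries of the same lines. AGS was at least 106733-fold higher against the floor of 3 reads. Myeloid cells make LYZ too, so markers of immune cells were read beside it. Of 25 such markers 5 were tested, PTPRC, CD3E, CD14 and CD163 have no row analysed here, and 3 of the 5 were at least 2-fold higher in AGS and 1 in MKN74. Besides LYZ these were AIF1, of macrophages, at 4.53 CPM against 0, and CSF1R, a receptor of macrophages, at 2.76 against 0.120, while CD68 stood at 6.14 against 8.45 and CORO1A at 3.34 against 25.5. The summed level of the 5 was 7677 CPM in AGS and 34.0 CPM in MKN74, with LYZ by far the largest term in AGS.

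Among the other 14 genes most in favour of AGS, several are made by glandular or secretory epithelium. PLA2G2A, a secreted phospholipase of Paneth cells, was at 494 CPM against 0. REG4, a secreted lectin of metaplastic and enteroendocrine cells and not among those 14, was at 234 against 0. CFTR, the chloride channel of ducts and crypts, was at 274 CPM against 0, TSPAN8, a tetraspanin of digestive cancers, at 411 against 0.0478, and CST1, a salivary-type cystatin, at 359 against 0. GALC, the lysosomal galactosylceramidase, was at 599 CPM in AGS and 0 in MKN74, and GATM, which makes the creatine precursor, at 715 and 0.550. PAGE4, a prostate- and placenta-associated antigen, was at 1239.9 against 0.0478 CPM. These 8 genes lay on the same side in the overexpression pair, with differences from -9.87 for PLA2G2A to -6.93 for REG4.

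On the MKN74 side KRT6A led, a keratin of stratified and wounded epithelium that has near-identical copies KRT6B and KRT6C. It was at 1.56 CPM in AGS and 4291 CPM in MKN74, and at 6.52 and 1495 CPM in the overexpression libraries. BMP7, a ligand of the bone morphogenetic protein family, was at 0.171 against 403 CPM. KRT23, a type I keratin of glandular epithelia, was at 0.463 against 489 CPM, and FSCN1, the actin bundler of filopodia, at 0.439 against 375. A4GALT, the synthase of the Gb3 glycolipid, was at 0 in AGS and 202 CPM in MKN74. The lysosomal enzymes IDS, which cuts heparan and dermatan sulfate, and CTSL, a cysteine protease, stood at 0.171 and 0.0244 CPM in AGS against 195 and 142 in MKN74. These lysosomal hydrolases were thus near 0 in opposite lines, GALC in MKN74 and IDS and CTSL in AGS.

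**Figure D2:**
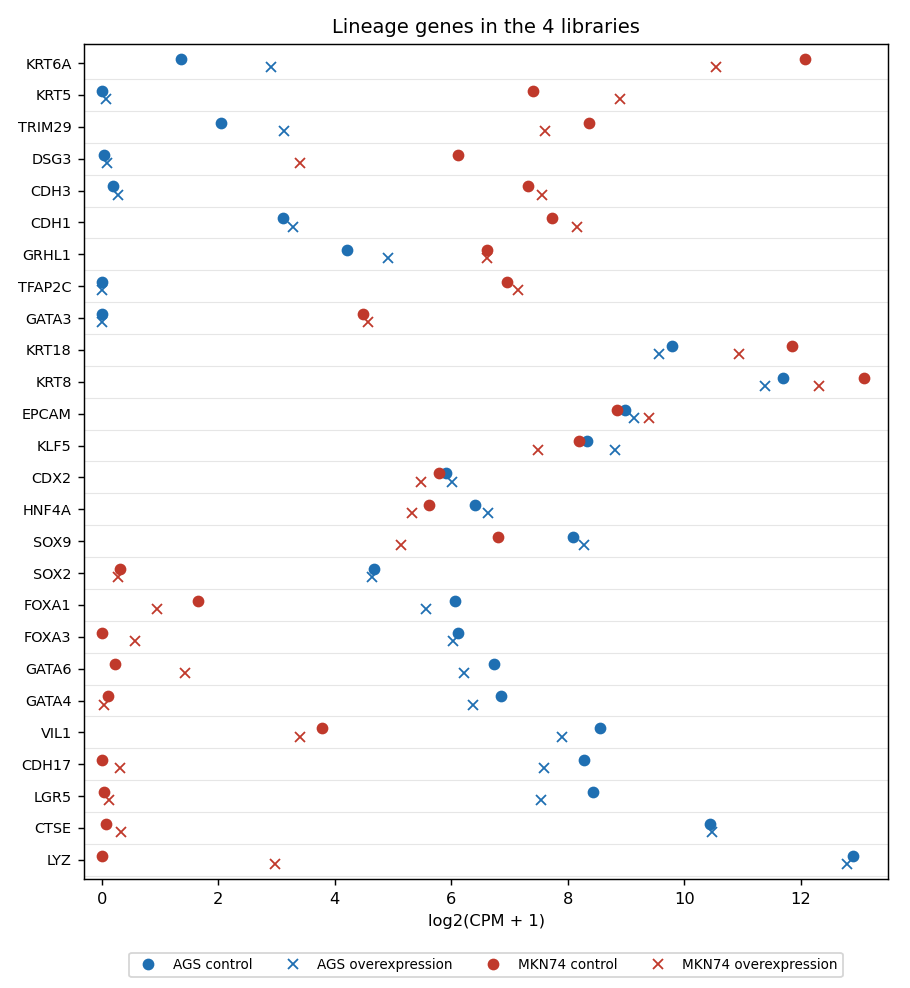
Levels of 26 lineage genes on the log2(CPM + 1) scale (x axis), 1 row per gene, with circles for control and crosses for overexpression libraries, blue for AGS and red for MKN74; each symbol is 1 library and there are no error bars. The genes from KRT6A to GATA3 are higher in red, EPCAM, KLF5 and CDX2 are close together in the control libraries, and those from SOX2 to LYZ are higher in blue.

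The endoderm transcription factors were lower in MKN74 or like AGS. Of 27 tested members 17 were at least 2-fold higher in AGS and 0 in MKN74, with a median difference of -1.96, beside 16.4% and 14.5% of all genes and a median of 0.02. The GATA family was divided between the lines. GATA4 was at 114 CPM in AGS and 0.0718 in MKN74 (3 reads, a ratio of AGS over MKN74 of 1589 with an exact 95% counting interval of 543 to 7709). GATA6 was at 106 against 0.167 CPM, and GATA5 at 10.4 against 0. GATA2 and GATA3, factors of blood, trophoblast and stratified or luminal epithelia, were the reverse: 0.0244 against 13.9 CPM for GATA2 and 0 against 21.3 CPM for GATA3. In the overexpression libraries GATA4 stood at 81.7 and 0.0218 CPM and GATA3 at 0 and 22.8, in AGS and MKN74.

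The FOXA factors, which open chromatin at endodermal enhancers, were on the AGS side as a family. FOXA1 was at 66.1 against 2.15 CPM, FOXA2 at 8.17 against 0.0239, and FOXA3 at 68.5 against 0. SOX2, a factor of foregut and stomach, was at 24.5 against 0.239 CPM, and ELF3, an epithelial ETS factor, at 309.9 against 13.8. SOX9, of progenitor cells, was at 271 against 111.

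Other endodermal regulators lay under 2-fold. CDX2, the intestinal master factor, was at 59.4 CPM in AGS and 54.6 CPM in MKN74. HNF4A was at 84.3 against 48.1, PDX1 at 11.3 against 5.67 and KLF5 at 319 against 291. ONECUT2, the gene the study works on, was at 4.39 CPM in AGS and 5.14 CPM in MKN74, a ratio of MKN74 over AGS of 1.17 whose counting interval, 0.957 to 1.44, includes 1. ACSL5, the acyl-CoA synthetase in the study's title, was at 8.92 CPM in AGS and 0.550 in MKN74. Its MKN74 minus AGS difference was -2.68 in the control pair but 0.64 in the overexpression pair, so its side was not kept.

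Transcripts of differentiated gut followed the side of AGS. Of 11 tested intestinal genes 8 were at least 2-fold higher in AGS and 1 in MKN74 (median of -3.81). CDH17, the liver-intestine cadherin, was at 308 CPM against 0, VIL1, the brush border actin bundler, at 376 against 12.8, and CEACAM6 and CEACAM5, surface adhesion proteins, at 94.2 and 14.02 against 0.646 and 0.0718. LGALS4, an intestinal galectin, was at 29.7 against 0. MUC2, CDX1 and FABP1 are among 19 genes of the list with no row analysed here.

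Gastric genes were few in either line. Of 32 listed genes 18, including MUC5AC, MUC6, TFF2, GKN1 and the proton pump subunit ATP4A, have no row analysed here, 4 (TFF1 among them) lay under the filter and 10 were tested. Of these 6 were at least 2-fold higher in AGS and 2 in MKN74, with a median of -2.27. Beside CTSE, AGS was higher in MUC1, a membrane mucin, at 147 against 3.56 CPM, and in PGC, the precursor of gastricsin, at 15.2 against 0.144 CPM. ANXA10, an annexin of gastric epithelium, was at 4.78 against 0. GAST, the hormone gastrin of antral G cells, was the reverse at 0.0488 in AGS (2 reads) and 34.2 CPM in MKN74. Most of the markers that define mature surface, neck, chief and parietal cells therefore gave no value in either line, and the gastric label rests on few genes.

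Hepatic secreted proteins, which foregut endoderm also gives rise to, showed the lowest median of the lists with at least 4 tested members, -4.62. Of 10 tested members 7 were higher in AGS and 1 in MKN74. The 3 fibrinogen chains FGA, FGB and FGG, genes that lie next to each other, were at 60.7, 69.9 and 89.8 CPM in AGS and each at 0 in MKN74. VTN, vitronectin, was at 259 against 0.0239 CPM, and F5, coagulation factor V, at 118 against 0.0478. The fibrinogen genes, VTN and F5 passed the filter only through AGS. Their side follows from the filter and gives no support for a direction. With no filter the list's median was -3.29, with 8 members higher in AGS and 1 in MKN74. Albumin, AFP and transthyretin have no row analysed here. APOE was the member higher in MKN74, with 0.805 against 4.47 CPM.

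The list of mucins and mucin glycosylation genes, which counts MUC1 again, had a median of -2.59, with 18 of 24 higher in AGS and 2 in MKN74. GALNT1 and GALNT2, which start O-glycans, were at 153 and 198 CPM in AGS against 23.5 and 26.6 in MKN74. C1GALT1, which extends them to the core 1 structure, was at 481 against 113, and GCNT1 and GCNT3, which branch them, at 21.9 and 13.1 against 1.12 and 1.46. FUT8, which adds the core fucose of N-glycans, was at 117 against 15.98. AGR2, a disulfide isomerase needed for mucin folding, was at 23.2 against 0.0957 CPM. ST3GAL1, which caps core 1 with sialic acid, stood on the other side at 0 against 141 CPM, at least 1934-fold higher in MKN74.

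**Figure D3:**
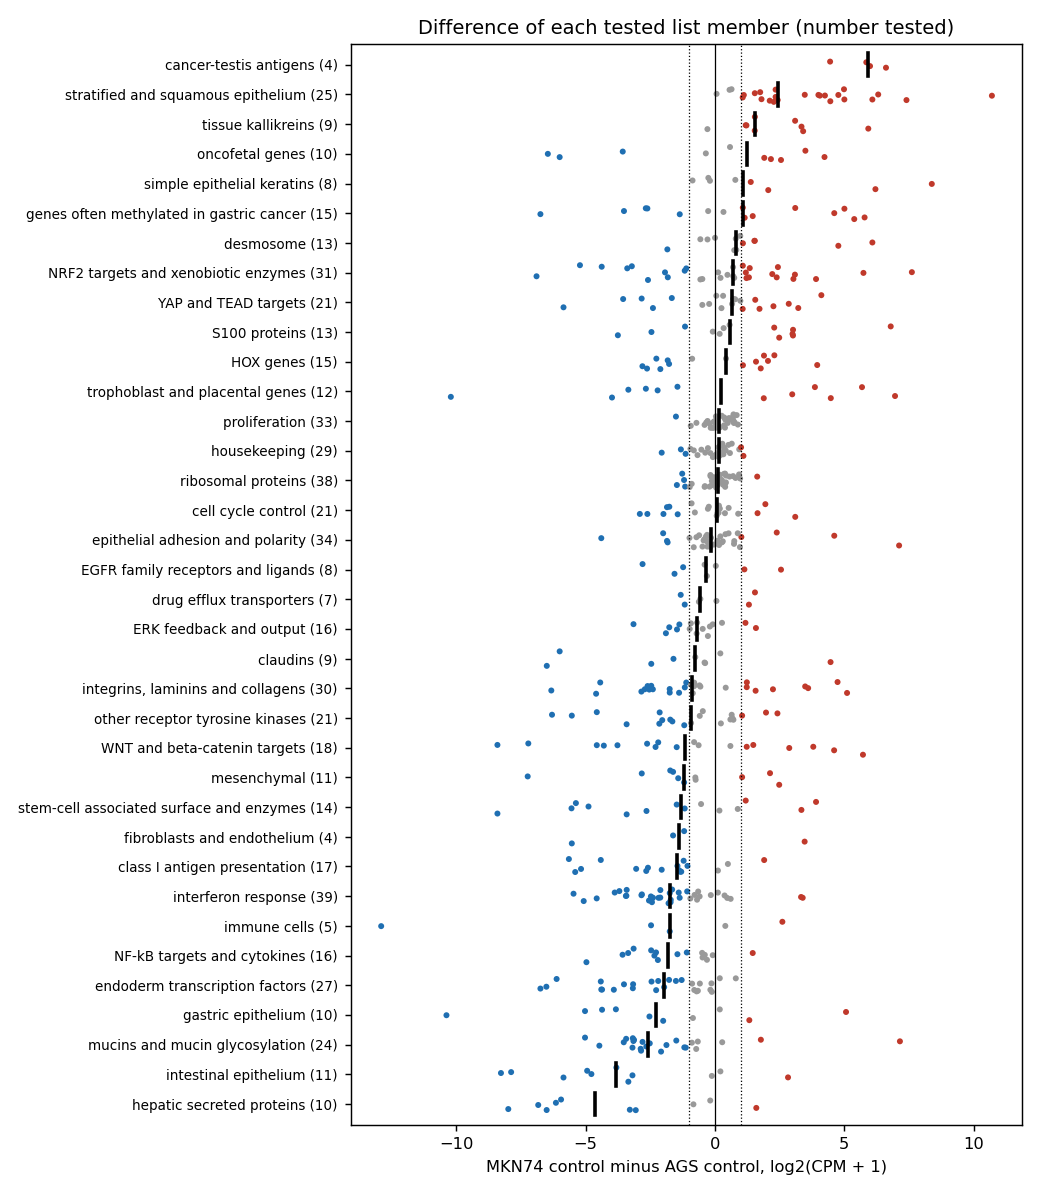
Each point is a tested member of a gene list and its x position is the MKN74 control minus AGS control difference in log2(CPM + 1); rows are the lists shown, each with at least 4 tested members (the number in brackets), ordered by their median (black bar), with red for at least 2-fold higher in MKN74, blue for at least 2-fold higher in AGS and grey for under 2-fold. The medians run from -4.62 for hepatic secreted proteins to 5.93 for cancer-testis antigens, and proliferation, ribosomal and housekeeping genes lie near 0.

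Stratified epithelial genes were on the side of MKN74. Of 25 tested members 22 were at least 2-fold higher in MKN74 and 0 in AGS, with a median of 2.43. Members near 0 in AGS, such as KRT5, KRT16, SPRR3 and DSG3, passed the filter only through MKN74. Their side follows from the filter and gives no support for a direction. With no filter 24 members were higher in MKN74 and 0 in AGS, with a median of 2.35. Among the keratins, KRT5 and KRT6A have been given, KRT16 was at 0.390 CPM in AGS and 43.2 in MKN74, and KRT17 at 74.8 and 385. The basal keratin KRT14 was low in both, at 0.927 and 2.01 CPM. TP63, the master factor of stratified epithelium, lay under the filter at 0.0244 CPM in AGS and 0.311 CPM in MKN74. TRIM29, a squamous marker, was at 3.15 against 329.

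Genes of the upper, cornifying layers were among those in favour of MKN74. Involucrin (IVL) and SPRR1B, parts of the cornified envelope, were at 0 in AGS and at 10.1 and 21.1 CPM in MKN74. SPRR3 was at 0.0244 against 31.9 CPM, and TGM1, the transglutaminase that links such proteins, at 1.27 against 42.3. DSG3 and DSG1, desmogleins of stratified epithelium, were at 0.0244 and 0 CPM in AGS and at 68.7 and 26.3 in MKN74. DSG2, the desmoglein of simple epithelium, was at 284 against 192, and the plaque protein DSP at 615 against 504, both under 2-fold. Of 13 tested desmosome genes 5 were higher in MKN74 and 1 in AGS, with a median of 0.83. In the second pair 16 of the 25 were 2-fold higher in MKN74 and 2 in AGS, GJB2 and KRT13, which stood at 50.1 and 35.2 CPM in AGS overexpression against 21.2 and 5.37 in MKN74 overexpression.

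The tissue kallikreins, secreted serine proteases of which several are active in skin, behaved likewise in the control pair. Of 9 tested, 8 were at least 2-fold higher in MKN74 and 0 in AGS (median of 1.55). KLK14 was at 0.610 against 97.2 CPM, KLK8 at 4.39 against 56.4 and KLK10 at 1.999 against 29.5. In the second pair the count was 2 in MKN74 and 2 in AGS, with a median of -0.07, beside 15.1% and 18% of the 12416 genes tested there. KLK14 and KLK12 were the members at least 2-fold higher in MKN74 in both pairs, with KLK12 at 0 in both AGS libraries.

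Trophoblast-associated genes were divided by kind. The AP-2 factors were higher in MKN74: TFAP2C, shared by trophoblast and stratified and luminal epithelia, at 0 against 124 CPM (at least 1695-fold), and TFAP2A at 6.49 against 26.7. The placental phosphatases ALPP and ALPPL2, near-identical genes whose reads may be divided wrongly, were at 1.41 and 0.463 CPM in AGS and at 18.2 and 74.4 in MKN74. The pregnancy-specific glycoproteins were higher in AGS in the control pair, from 2.71 to 15.9 CPM over PSG1, PSG2, PSG4, PSG5 and PSG11, against at most 0.359 CPM in MKN74. They too are near-identical copies. In the overexpression pair PSG1, PSG2 and PSG11 stayed at least 2-fold higher in AGS, but PSG4 and PSG5 differed by -0.90 and 0.03. With 6 of 12 on either side the list's median was 0.22, and it was -0.29 with a pseudocount of 0.1 and -0.55 with no filter, so it gives no direction.

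Of 43 listed cancer-testis antigens, genes normally silent outside the germ line, 38 have no row analysed here and 4 were tested. All 4 were higher in MKN74. Each passed the filter only through its MKN74 level, so this count follows from the filter and gives no support for a direction. MAGEB2, MAGEA1 and MAGEA12 were at 0 in both AGS libraries and at 97.04, 62.9 and 56.9 CPM in the MKN74 control. PRAME was at 0.0975 against 23.1. MAGEA genes have near-identical copies. The count holds for these members alone, since antigens of the same kind outside the list went the other way, PASD1 at 111 CPM in AGS against 0 and PAGE4 as given. The HOX genes were mixed, with 7 of 15 higher in MKN74 and 6 in AGS (median of 0.43, but -0.11 with a filter of 5 CPM). HOXB6 and HOXB9 were at 15.04 and 18.5 CPM in AGS against 1.60 and 3.06, whereas HOXB7, which lies between them, was at 0.414 against 20.96 CPM. HOXC10, HOXC11, HOXC13 and the noncoding HOTAIR were at 4.04, 2.42, 12.2 and 2.73 CPM in MKN74 and at 0 to 2.17 CPM in AGS. HOTAIR runs antisense to this cluster, and without a stated strand setting its reads are uncertain.

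Adhesion and polarity genes of epithelia in general were not set apart from genes in general by their count: of 34 tested 4 were at least 2-fold higher in each line, beside 14.5% and 16.4% of all genes, with a median of -0.16. EPCAM, an adhesion molecule of many simple epithelia, was at 508 CPM in AGS and 457 in MKN74. The classical cadherins CDH1 and CDH3 were among the members that differed, beside ELF3, LSR, PRSS8 and SPINT2, higher in AGS, and GRHL1 and GRHL3, higher in MKN74. CDH1, E-cadherin, was at 7.63 CPM in AGS and 211 CPM in MKN74, with 8.74 and 284 CPM in the overexpression libraries. CDH3, P-cadherin, was at 0.146 against 159.

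Mesenchymal genes were read beside the low CDH1 of AGS. Of 30 mesenchymal genes 16, including ZEB1, ZEB2, SNAI2, TWIST1 and N-cadherin (CDH2), have no row analysed here. VIM was at 7.12 CPM in AGS and 0.144 in MKN74, and SNAI1, under 2-fold, at 9.34 and 5.12. TAGLN, an actin-binding protein of smooth muscle, was at 399 against 1.65, and CALD1, caldesmon, at 340.3 against 102. FN1, fibronectin, was higher in MKN74 at 0.244 against 4.45 CPM. In all 6 of 11 tested were 2-fold higher in AGS and 3 in MKN74, with a median of -1.19. In the second pair 3 were higher in AGS and 1 in MKN74, with a median of -0.50. With a filter of 5 CPM the control pair gave 3 in AGS and 2 in MKN74.

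Keratins of simple epithelium were present at high levels in both lines. KRT8 was at 3337 CPM in AGS and 8729 in MKN74, KRT18 at 886 and 3704, and KRT19 at 683 and 573. The keratin list, which also holds the hair keratins KRT81 and KRT86, had 4 of 8 tested higher in MKN74 (KRT8, KRT18, KRT23 and KRT81), 0 in AGS and a median of 1.09. Claudins, the sealing proteins of tight junctions, included members of opposite kind: CLDN2, which forms leaky pores, was at 98.2 against 0.0957 CPM, CLDN6, of fetal epithelium, at 70.8 against 0.120, and CLDN9 at 0.512 against 32.6. CLDN4 and CLDN7 were at 299 and 229 CPM in AGS and at 346 and 173 in MKN74, each under 2-fold. Of 9 claudins tested 4 were higher in AGS and 1 in MKN74, with a median of -0.76.

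Members of some gene families differed in opposite directions or singly, examples picked after the values were seen. Moesin (MSN) and radixin (RDX) link membrane to actin. MSN was at 351 CPM in AGS and 0.0478 in MKN74 (2 reads), RDX at 0 and 298, and the third member, EZR, at 652 and 1682. So AGS held ezrin and moesin and MKN74 ezrin and radixin. Of the lactate dehydrogenase subunits LDHB was nearly absent from MKN74 as given, whereas LDHA was at 1065 and 1066 CPM. The basement membrane gene COL4A5 was at 79.2 in AGS against 0 in MKN74, and COL17A1 and COL18A1 at 11.7 and 3.78 in AGS against 339 and 164. Among integrins, laminins and collagens 14 of 30 were higher in AGS and 8 in MKN74, with a median of -0.89.

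WNT target genes, which respond to beta-catenin, differed strongly in both directions. Of 18 tested 9 were higher in AGS and 6 in MKN74, with a median of -1.14. LGR5, a receptor of stem cells, was at 347 CPM in AGS and 0.0239 (1 read) in MKN74, and DKK1, a secreted WNT inhibitor, at 162 against 0.0957. AXIN2, the feedback inhibitor, was at 523 against 84.2 CPM. In MKN74 the higher ones were LEF1, a beta-catenin partner, at 0 against 23.4, APCDD1, a WNT inhibitor, at 0 against 51.9, and NOTUM, an enzyme that inactivates WNT ligands, at 6.78 against 108. The ligands WNT11 and WNT10A stood at 0 and 0.0244 CPM in AGS and 106 and 96.6 in MKN74. Feedback genes of the pathway were thus present in both lines. AXIN2 and NOTUM were found in both, at different levels, whereas DKK1 was near 0 in MKN74 and APCDD1 at 0 in AGS.

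Of the genes linked to stem cells, 8 of 14 were higher in AGS and 3 in MKN74, with a median of -1.32. CD44, a hyaluronan receptor, was at 57.3 CPM in AGS and 0.407 in MKN74, ALCAM at 342 against 10.6, and CD24 at 577 against 1319.

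Genes described as methylated in gastric cancer included 8 of 15 tested that were higher in MKN74 and 5 in AGS, with a median of 1.08. CDKN2A, which encodes p16, was at 0.0244 (1 read) against 7.82 CPM, DAPK1, a death-associated kinase, at 0 against 31.2, and CHFR, a mitotic checkpoint gene, at 0.0244 against 41.9. MGMT, a DNA repair gene, lay under 2-fold at 26.97 CPM in AGS and 22.3 in MKN74. HLTF and CDH1 are on this list as well. GATA4 and GATA5 are its members with 3 and 0 reads in MKN74. DNA methylation itself was not measured in the libraries used here.

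The NRF2 and xenobiotic list had 13 of 31 higher in MKN74 and 10 in AGS, with a median of 0.70. GCLC and GCLM, which make the first bond of glutathione, were at 61.9 and 49.03 CPM in AGS and at 292 and 269.9 in MKN74, and CYP1B1, an oestrogen- and xenobiotic-oxidising enzyme, was at 0 against 52.6. ALDH3A1 was the reverse at 36.2 against 0, and AKR1B1, aldose reductase, at 132 against 0.120. NQO1 was at 515 and 368, under 2-fold. YAP targets were mixed too (7 of 21 in MKN74, 5 in AGS, median of 0.67), with CTGF at 127 against 1.22 and F3, tissue factor, at 22.3 against 167. Among the S100 proteins, calcium-binding proteins of which 6 of 13 were higher in MKN74 and 3 in AGS (median of 0.57, but 3 and 5 with a median of -0.33 in the second pair), S100A9 and S100P were higher in MKN74, at 0.293 and 8.63 against 143 and 76.1, and S100A6 in AGS, at 1923 against 350.3.

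Receptors of growth factors differed by member, and their counts stand beside 14.5% of all genes higher in MKN74 and 16.4% higher in AGS. Of the EGFR family and its ligands 2 of 8 tested were higher in MKN74 and 3 in AGS, with a median of -0.35. EGFR was at 40.3 CPM in AGS and 90.03 in MKN74, ERBB2 at 134 and 101 and ERBB3 at 109.9 and 113. Of 21 other receptor tyrosine kinases 10 were higher in AGS and 3 in MKN74, with a median of -0.92. ROR1, a WNT co-receptor, was at 123 against 0.574 CPM, PDGFRA at 46.4 against 0.0239, and IGF1R at 27.04 against 109. Of the ERK output genes 5 of 16 were higher in AGS and 2 in MKN74 (median of -0.70), and DUSP4, an ERK phosphatase, was at 571 against 63.5. Oncofetal genes differed in both directions (5 of 10 in MKN74, 3 in AGS, median of 1.25, but -0.35 with a filter of 5 CPM): H19, an imprinted noncoding RNA, was at 533 against 5.07, and IGF2BP3, an RNA-binding protein of fetal tissue, at 13.8 against 166.

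Genes of antigen presentation by class I molecules were higher in AGS for 14 of 17 tested and in MKN74 for 1, with a median of -1.45. NLRC5, their activator, was at 24.4 against 0.191 CPM, PSMB8, an immunoproteasome subunit, at 41.3 against 0, TAP1, the peptide transporter, at 42.2 against 4.23, and B2M, the light chain, at 915 against 219. HLA-C was the reverse at 12.5 against 49.5, but HLA genes vary between people and resemble each other, so their counts against a single reference are uncertain. In the second pair 10 of the 17 were higher in AGS and 2 in MKN74. NF-kB targets were also mostly higher in AGS, 10 of 16 against 1 (median of -1.83), for instance ICAM1 at 77.2 against 6.65 and CXCL8 at 14.4 against 2.18.

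The interferon response list did not keep its side. In the control pair 27 of 39 members were at least 2-fold higher in AGS and 2 in MKN74, with a median of -1.75. In the overexpression pair 4 were higher in AGS and 26 in MKN74, with a median of 1.91. OAS1, a sensor of double-stranded RNA, was at 42.8 CPM in the AGS control and 5.12 in the MKN74 control, and at 46.5 and 245 in overexpression. IFI6 was at 279.6 and 25.2 CPM in the controls and at 305 and 706 in overexpression. EPSTI1 kept its side at 39.1, 0.191, 35.1 and 0.153 CPM in the same order. For OAS1 and IFI6 the MKN74 value differed more between the pairs than the AGS value did.

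**Figure D4:**
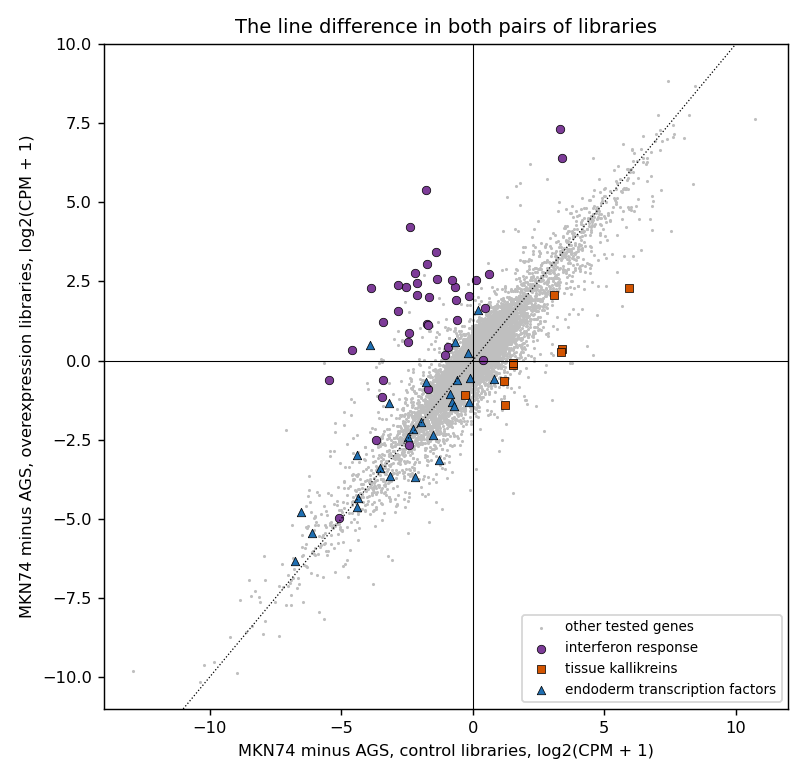
Each point is a tested gene, with the MKN74 minus AGS difference in log2(CPM + 1) of the control libraries on the x axis and of the overexpression libraries on the y axis; the dotted line marks equal differences and each axis rests on 1 library per line. Most endoderm transcription factors lie near the dotted line, most interferon genes lie left of 0 on the x axis and above 0 on the y axis, and the kallikreins lie below the dotted line.

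Over all genes most 2-fold line differences were met again in the second pair. Of the 1762 genes higher in MKN74 1287 (73.0%) were at least 2-fold higher in MKN74 overexpression, and of the 1995 higher in AGS 1566 (78.5%) in AGS overexpression. Of the 8-fold genes 405 of 414 and 409 of 426 were so. In the opposite direction at 2-fold were 17 and 30 genes, and 16 of the 30 are on the interferon list. Pearson's r of both differences was 0.908 and Spearman's rho 0.856 across the 12161 genes, which are not independent replicates, and the pairs share lines but no library.

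A limma fit of the deposited log2 values on line and arm (control or overexpression) over 4 libraries used 12340 genes and left 1 residual degree of freedom. It tests the line difference averaged over both arms, not that of the controls alone. With Benjamini-Hochberg adjustment at 0.05 it called 2582 genes (20.9%) higher in MKN74 and 2748 (22.3%) higher in AGS. The fit holds both control libraries, so its calls are no independent support for the control differences. Of the endoderm transcription factors it called 18 as higher in AGS and 0 in MKN74, of the stratified genes 18 in MKN74 and 0 in AGS, of the interferon list 5 in AGS and 2 in MKN74, and of the kallikreins 2 in MKN74.

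Some genes that differed lay side by side. Placed in RefSeq order, 12017 tested genes gave 82 runs of 4 or more neighbours that were all at least 2-fold higher in the same line, 49 in AGS and 33 in MKN74, with 420 genes in all, beside 3757 that differed 2-fold. Some were clusters of related genes. The keratin run KRT6B, KRT6C, KRT6A, KRT5, KRT1, KRT8 and KRT18, the run from IVL and the SPRR genes to S100A9 and S100A8, and the run KLK6 to KLK14 were higher in MKN74. CEACAM1 with 5 PSG genes, the chemokines CXCL8, CXCL1, CXCL3 and CXCL2, and a run of 9 genes of the X chromosome from ARMCX4 to NGFRAP1 were higher in AGS.

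The longest run joined genes of unrelated function, 12 neighbours from RTN4R to THAP7 with a median difference of 3.23 in favour of MKN74. The stretch around it, from HIRA to PI4KAP2 and delimited after its values were seen, held 31 tested genes, of which 27 were at least 2-fold higher in MKN74 and 1 in AGS. CRKL, an adaptor of growth factor signalling, was at 105 CPM in AGS and 996 in MKN74, MED15, a Mediator subunit, at 54.5 against 559, and PI4KA, a lipid kinase, at 58.2 against 553. SNAP29, of membrane fusion, was at 28.7 against 316, HIC2, a transcriptional repressor, at 17.04 against 312, and RANBP1, of nuclear transport, at 156 against 1173. ZDHHC8, a palmitoyltransferase inside the stretch, was the reverse at 24.5 against 0.239 CPM. The genes next to the stretch on either side, CLTCL1 and UBE2L3, were at 7.997 and 130.5 CPM in AGS and at 3.04 and 139 in MKN74. Further out, PRODH, DGCR5 and DGCR14 before it and PPM1F after it were higher in MKN74 too, by 2.01, 2.25, 1.16 and 1.62. Apart from CLTCL1, higher in AGS, the other flanking genes shown lay under 2-fold. In the second pair 21 of the 31 were at least 2-fold higher in MKN74.

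**Figure D5:**
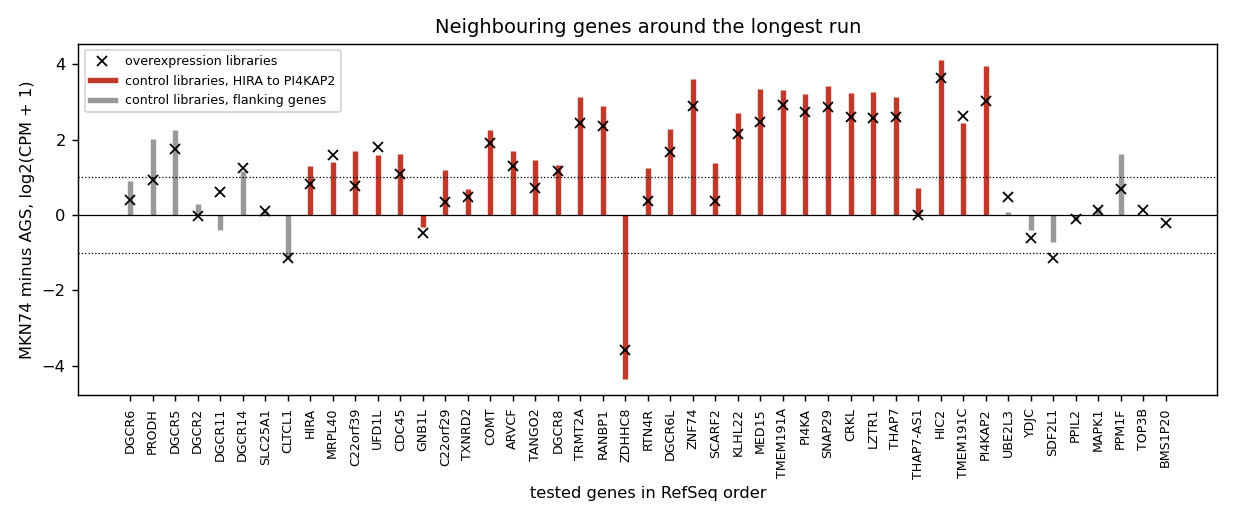
Tested genes in RefSeq order (x axis, by rank and not to scale of distance) with the MKN74 minus AGS difference in log2(CPM + 1) on the y axis; bars are the control libraries, red for the stretch from HIRA to PI4KAP2 and grey for 8 genes on either side, crosses are the overexpression libraries and dotted lines mark 2-fold. From TRMT2A to PI4KAP2 most bars reach 2 or more, with ZDHHC8 below 0 at -4.36 and UBE2L3 near 0.

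Proliferation, ribosomal and housekeeping genes mostly lay under 2-fold in the control pair. Of 33 proliferation genes 0 were 2-fold higher in MKN74 and 1 in AGS, TYMS, thymidylate synthase, at 35.9 against 11.99 CPM, and the median was 0.16. In the second pair 7 were higher in MKN74 and 0 in AGS (median of 0.57), beside 15.1% and 18% of all genes there. The limma fit called 9 as higher in MKN74 and 1 in AGS, beside 20.9% and 22.3% of all genes. MKI67 was at 359 CPM in AGS and 369 in MKN74. Of 21 cell cycle regulators 6 were higher in AGS and 3 in MKN74, with a median of 0.07 and 12 under 2-fold, where 30.9% of all genes differed 2-fold. CDKN1A and CDKN2B, inhibitors of cell cycle kinases, were at 234 and 43.3 CPM in AGS against 30.5 and 6.24, the kinase CDK6 at 311 against 77.6, cyclin E1 (CCNE1) at 40.1 against 10.4 and cyclin D3 (CCND3) at 36.99 against 146. Under 2-fold, MYC was at 147 and 164 and CCND1 at 552 and 457. Of 38 ribosomal protein genes 33 and of 29 housekeeping genes 24 lay under 2-fold, with medians of 0.12 and 0.15. Among the smaller lists, drug efflux transporters had 2 of 7 higher in either line (median of -0.56), class II antigen presentation 1 of 2 in either line (median of 0.17) and neuroendocrine genes 1 of 3 in either line (median of -0.84), and the 12 mitochondrially encoded genes have no row analysed here. Markers of fibroblasts and endothelium were scarce: 4 of 17 were tested, PECAM1, VWF and DCN have no row analysed here, and the summed level of the 4 was 66.6 CPM in AGS and 17.9 CPM in MKN74.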

How the data were processed

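RNA sequencing of AGS and MKN74, 1 control and 1 ONECUT2 overexpression library each, was analysed, and samples were grouped by their title labels. Of 12 samples in the labels, 8 are ChIP samples and were not used. A TruSeq RNA kit made the RNA libraries, per the labels' protocols. Tools named in the submitters' processing notes, without their roles, are edgeR 3.12.1, STAR 2.5.1, HOMER 4.9.1, Bowtie2 2.1.0 and CASAVA 1.7, and the build named is hg19. Neither the read counter nor a strand setting is given in the sources used here, so antisense, overlapping and near-identical genes are uncertain.

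The authors deposited log2 values for 13109 rows, which by the values themselves are log2(CPM + 1). Undoing the log gave whole reads in each library, at most 2.6e-08 of a read from whole, with 0.0244, 0.0231, 0.0239 and 0.0218 CPM per read in AGS control, AGS overexpression, MKN74 control and MKN74 overexpression. The listed rows held 83.1% to 88.1% of the library size this implies. The 18 date-named rows were left out, and 930 symbols lay under the filter. RefSeq matched 12918 symbols. Its build is not hg19, so it gave only names, gene order and the promoter windows.

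Control differences have no test. Exact Clopper-Pearson conditional binomial intervals at 95% cover counting error alone, as PCR copies of a molecule cannot be told from other reads. All 3757 genes differing 2-fold had a ratio interval that excluded 1. The filter and the read depth fix this outcome in advance, so it is no support for these genes. The limma fit used empirical Bayes moderation with a mean trend. The read recovery and the limma step were tested on simulated data. The genes named were taken from ONECUT2 and ACSL5, the 15 largest differences each way at a mean of at least 5 CPM, genes at 0 in one control and at least 10 CPM in the other, up to 6 members of each of 40 lists plus members under 2-fold, genes in runs of neighbours and those at the filter's edge. EZR, LDHA, CD68 and the other genes outside this rule were chosen after their values were seen. The result of 1 list is not reported here. The members and lists were chosen with earlier results of these data known. Alternatives were pseudocounts of 0.1 and 2, no filter or 5 CPM, a common median, quantile normalization, recovered totals, 1.5-fold and 4-fold, the overexpression pair, and for limma no trend, robust moderation, no arm, voom weights and 5 CPM. The fits were made in limma 3.58.1 (R 4.3.3), and all else in Python 3.11.15 with scipy 1.17.1, pandas 2.3.3, numpy 2.4.6 and, for plots, matplotlib 3.10.9.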

Additional observations from a re-analysis of the deposited data

Results flagged for a closer look

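Some named results lay at least 2-fold on one side in the control pair and at least 2-fold on the other in the overexpression pair. With 1 library per line and arm, the difference between the pairs was not tested. The interferon response list had a median MKN74 minus AGS difference of -1.75 in the controls and 1.91 in the overexpression libraries. Of its members, OAS2 went from -3.87 to 2.29, OAS1 from -2.84 to 2.37 and OAS3 from -1.65 to 1.998. DDX60L, a helicase relative of the interferon response that is not on the list, went from -1.71 to 1.11. Some epithelial genes turned the other way. S100P, a calcium-binding protein, went from 3.001 to -1.25, KLK6, a kallikrein, from 1.22 to -1.42, and KRT13, a keratin of stratified epithelium, from 1.12 to -2.51.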

How the results depend on the processing

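With 1 library per line and arm, no replicate could be left out. No paired analysis was possible because each group holds 1 library and the labels give no replicate numbers; the limma fit has the arm as a term, and leaving the arm out gave 2599 calls for MKN74 and 2706 for AGS. The size rule moved the counts most, as its construction implies: at 1.5-fold 3055 genes were higher in MKN74 and 3196 in AGS (6251 in all), and at 4-fold 753 and 811 (1564 in all). Under the other settings the counts stayed within 1.5 times, from 1206 to 1936 for MKN74 and from 1588 to 2240 for AGS, and the share of differing genes that were higher in MKN74 was 43.2% to 48.7%, against 46.9%. The limma counts ran from 2040 to 2878 for MKN74 and from 2346 to 2857 for AGS. With a mean of at least 5 CPM the median of oncofetal genes turned from 1.25 to -0.35 and that of immune cell markers from -1.75 to 0.40, since fewer members were tested. Near-0 medians of HOX and cell cycle genes turned to -0.11 and -0.25 there, and that of neuroendocrine genes from -0.84 to 0.72 with no filter. Of 726 named genes differing 2-fold, 35 fell under it with a pseudocount of 2, 15 with quantile normalization, 3 with a common median and 2 with recovered totals, and 0 changed sign under the 7 settings compared. Depth limits the genes at 0 to a floor of 3 reads per library.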
